A study of Mus musculus with 1 sample.

Results

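The nuclear factor I family is a group of 4 transcription factor genes, Nfia, Nfib, Nfic and Nfix, and their transcripts were followed through the cell types of the newborn mouse cerebral cortex. The members were taken by gene symbol, and all 4 were found among the 51912 genes of the table. The data came from 1 sc-RNA Seq library of the cerebral cortex of wild-type (WT) C57BL/6 mice at P0, the day of birth, prepared with droplet 10x Genomics Chromium chemistry that reads the 3′ end of transcripts. Molecules, not PCR copies, were counted, by their unique molecular identifiers (UMIs). The study's design text also names mice with SERPINA3 driven by Nestin-Cre and triplicates, which were not analysed here. With 1 library there was no replicate, no test between groups was made, and all intervals given are exact 95% intervals that cover counting error only.

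Nuclear factor I proteins bind DNA as dimers, to a palindrome built from the motif TTGGC and its reverse complement GCCAA. In the developing forebrain Nfia and Nfib are known for driving radial glia from making neurons to making glia, Nfix for the timing of neural stem cell differentiation, and Nfib also for deep-layer neurons and their axons. Nfic is best known from teeth and is expressed in many tissues.

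The library held 11062 cells with a median of 7196.5 UMIs per cell, and the 9018 cells with at least 1000 detected genes were kept. Cells were assigned to classes by UMIs of marker genes, at least 3 UMIs from at least 2 markers of a list, and none of the 4 members was a marker. The 351 cells that passed the gates of more than 1 lineage were left out, and no doublet caller was run. The gates for radial glia or astrocytes and for the oligodendrocyte lineage counted as 1 lineage, and cells passing both took the latter name. Excitatory neurons were given a layer in 3425 cells, while 3414 (37.9% of kept cells) had no single layer. These 3414 cells and 90 inhibitory neurons of no single type were read only by single markers. Another 425 cells passed no lineage gate and were in no class. As the gates fix, among the 10 leading genes of each of 14 classes (all but the dividing inhibitory cells and the dividing cells with newborn-neuron markers, which were not read), markers of the class itself or of its parent lineage were found (Aldoc for radial glia or astrocytes, Olig1 and Pdgfra for the oligodendrocyte lineage, Eomes for newborn neurons, Cux2, Rorb, Fezf2 and Foxp2 for layers II/III, IV, V and VI, Lhx6 and Sst or Adarb2 and Prox1 for the interneurons), which is no independent check of the names. Levels are CPM, the UMIs of a gene scaled to a total of 1000000 non-mitochondrial UMIs of the class.

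For the members, RefSeq promoter entries on GRCm38.p6 were found for 3 of 4 genes. Those of Nfia and of Nfix (1 of its 4 listed starts) are shown because their levels differed in opposite directions between radial glia or astrocytes and layer II/III to V neurons. That of Fabp7, a fatty acid binding protein of radial glia, is shown because it is a glial gene linked to the family. Each run is the 250 bases before the start, 5′ to 3′ on the gene's strand, at chr4:97581693-97581942 (plus strand), chr8:84775829-84776078 (minus strand) and chr10:57784673-57784922 (plus strand), and capitals mark TTGGC or GCCAA.
Nfia: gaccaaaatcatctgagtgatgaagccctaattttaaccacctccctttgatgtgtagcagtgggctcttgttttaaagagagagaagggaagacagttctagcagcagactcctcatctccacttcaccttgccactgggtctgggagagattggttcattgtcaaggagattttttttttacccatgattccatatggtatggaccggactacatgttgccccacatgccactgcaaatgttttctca
Nfix: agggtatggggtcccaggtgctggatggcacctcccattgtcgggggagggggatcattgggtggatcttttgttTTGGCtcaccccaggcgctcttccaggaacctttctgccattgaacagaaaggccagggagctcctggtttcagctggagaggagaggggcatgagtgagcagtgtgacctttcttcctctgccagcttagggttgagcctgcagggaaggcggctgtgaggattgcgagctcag
Fabp7: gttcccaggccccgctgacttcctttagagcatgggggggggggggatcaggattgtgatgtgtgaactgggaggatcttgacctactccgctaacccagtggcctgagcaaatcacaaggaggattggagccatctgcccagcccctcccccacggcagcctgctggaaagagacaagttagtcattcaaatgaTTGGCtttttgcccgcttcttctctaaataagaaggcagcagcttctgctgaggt
On either strand, TTGGC occurred once in the Nfix and Fabp7 windows and not in the Nfia window, and of the 4 Nfix windows 2 held it, the one shown being the first of these. It occurred in 41.5% of all 32851 promoter windows of this length, and the full palindrome with 5 bases between its arms in 0.0365% of them, so that a match here is only a description of the letters.

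Nfix and Nfib gave most of the family's transcripts. The whole table held 193536 UMIs of Nfix, 132971 of Nfib, 24249 of Nfia and 5010 of Nfic, and a UMI was seen in 89.5%, 87.6%, 49.0% and 30.9% of all cells. Summed over the 4 genes, the level was highest in newborn excitatory neurons, at 6439 CPM (6318 to 6561), and in layer VI neurons, at 6410 CPM (6352 to 6469), whose intervals overlapped. It was 3419 CPM (3332 to 3508) in radial glia or astrocytes. In the 197 Lhx6 and Sst interneurons it was 439 CPM (404 to 477), and in the 26 striatal-type inhibitory neurons it was 323 CPM (255 to 403). These were the lowest levels of the 16 classes with at least 20 cells.

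**Figure D1:**
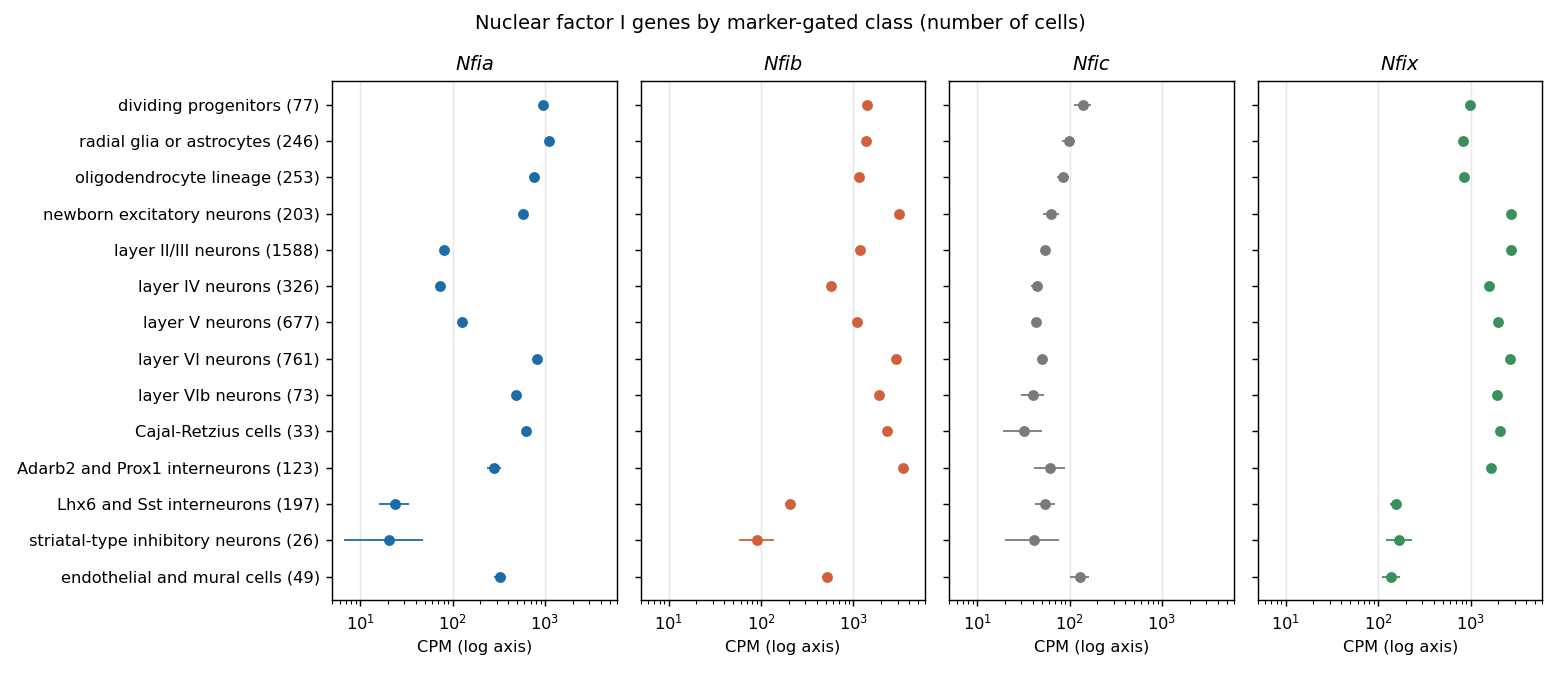
Level of each member (CPM, log axis) in 14 marker-gated classes, with the number of cells in parentheses; points are the class sums and bars exact 95% Poisson intervals. Nfia was at 1109 CPM in radial glia or astrocytes and at 80.8 CPM in layer II/III neurons, while Nfix was at 831 and 2711 CPM in the same classes.

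Nfia was high in glia and in some neurons and low in layers II/III to V. Its level was 1109 CPM (1060 to 1160) in radial glia or astrocytes, 955 CPM (884 to 1031) in dividing progenitors and 761 CPM (723 to 800) in the oligodendrocyte lineage. Among neurons, layer VI neurons had 816 CPM (795 to 837), Cajal-Retzius cells, the Reln-expressing cells of layer I, had 628 CPM (564 to 697), newborn excitatory neurons had 579 CPM (543 to 616), and layer VIb neurons, remnants of the subplate, had 489 CPM (452 to 529). The intervals of layer VI neurons and the oligodendrocyte lineage overlapped. Layers V, II/III and IV were far lower, at 128, 80.8 and 73.8 CPM, and the last 2 overlapped. The lowest levels were 23.6 CPM (15.9 to 33.7) in Lhx6 and Sst interneurons and 20.7 CPM (6.72 to 48.3) in striatal-type neurons. A layer VI neuron had a median of 7 Nfia UMIs, a layer V neuron 1 and a layer II/III or IV neuron 0.

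Nfib followed another order. It was highest in Adarb2 and Prox1 interneurons, at 3417 CPM (3254 to 3585), followed by newborn excitatory neurons at 3074 CPM (2991 to 3159) and layer VI neurons at 2888 CPM (2849 to 2928), and no neighbours in this order overlapped. Over the other settings these levels ran from 2803 to 3502, 2063 to 3458 and 2786 to 2970 CPM. Newborn neurons thus fell below layer VI neurons in at least 1 setting, and the order depended on the settings. Cajal-Retzius cells had 2326 CPM and layer VIb neurons 1885 CPM. Dividing progenitors and radial glia or astrocytes lay in the middle, at 1387 and 1381 CPM, with overlapping intervals. Layers II/III and V had 1180 and 1093 CPM, and layer IV had 564 CPM (543 to 586), the lowest of the layers.

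Nfix was high in all excitatory neurons and lower in glia. Newborn neurons, layer II/III neurons and layer VI neurons had 2723, 2711 and 2656 CPM, with overlapping neighbours. Layer V had 1985 CPM, layer VIb 1934 CPM and layer IV 1599 CPM. Dividing progenitors, the oligodendrocyte lineage and radial glia or astrocytes had 981, 846 and 831 CPM, of which the last 2 overlapped. Endothelial and mural cells had 140 CPM (111 to 174), the lowest of the 16 classes, with an interval that overlapped that of Lhx6 and Sst interneurons.

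Nfic had the fewest UMIs of the 4 genes in the table. Its level was 139 CPM (112 to 169) in dividing progenitors, 130 CPM (94.1 to 174) in dividing inhibitory cells and 129 CPM (101 to 162) in endothelial and mural cells, all overlapping. Dividing cells with newborn-neuron markers had 133 CPM (96.4 to 178). Radial glia or astrocytes had 97.5 CPM (83.2 to 113). From newborn neurons at 62.9 CPM to Cajal-Retzius cells at 31.9 CPM, every neuronal class overlapped the next in the order, although the intervals of these 2 ends (51.5 to 76.0 and 18.9 to 50.5) did not. In cells thinned to 2000 UMIs, 0 of 32 Cajal-Retzius cells had a Nfic UMI (exact upper limit 10.9%), against 33.3% of the 33 cells at full depth.

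Shares of cells with a UMI depend on depth, so they were compared after thinning to 2000 UMIs per cell, which left out 585 shallower cells. Nfia was then seen in 89.1% of radial glia or astrocytes (84.4 to 92.7), in 73.8% of layer VI neurons (70.5 to 76.9) and in 13.8% of layer II/III neurons (12.1 to 15.6), against 98.4%, 94.7% and 40.4% without thinning. Lhx6 and Sst interneurons had a Nfia UMI in 5.43% of thinned cells (2.64 to 9.77) and 11.2% of all. The layer II/III share lay above this thinned share, and the layer IV share of 11.4% (8.17 to 15.4) overlapped it. For Nfib and Nfix the thinned shares of these interneurons were 24.5% (18.4 to 31.3) and 26.1% (19.9 to 33.1). Every excitatory layer lay above both, at 67.0% or more for Nfib and 92.0% or more for Nfix. What free RNA in the droplets gave was not tested. Median depth was 6034 UMIs in Lhx6 and Sst interneurons, 7081 in radial glia or astrocytes, 9446 in layer VI and 9682.5 in layer II/III.

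The makeup of the family differed between classes. Because 3′ UMIs count molecules and not fragments, shares were not scaled by gene length, although capture may differ between genes. In radial glia or astrocytes Nfib gave 40.4% of the family's UMIs (39.1 to 41.7), Nfia 32.4% (31.2 to 33.7), Nfix 24.3% (23.2 to 25.4) and Nfic 2.85%. Dividing progenitors and the oligodendrocyte lineage had nearly the same Nfib share, 40.1% in each. In newborn excitatory neurons the shares were 47.7% for Nfib, 42.3% for Nfix and 8.99% for Nfia. Over the other settings the Nfib share there ran from 41.4% to 49.5% and the Nfix share from 40.2% to 46.4%, so that either could lead. Nfix led in layers II/III, IV and V, with 67.3%, 70.1% and 61.1%, while Nfia was 2.01%, 3.24% and 3.93% of the family there. Layer VI neurons had a makeup close to that of newborn neurons, with 45.1% Nfib, 41.4% Nfix and 12.7% Nfia, and Cajal-Retzius cells had 45.9%, 41.1% and 12.4%. In Adarb2 and Prox1 interneurons Nfib gave 63.1% (61.2 to 64.9).

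**Figure D2:**
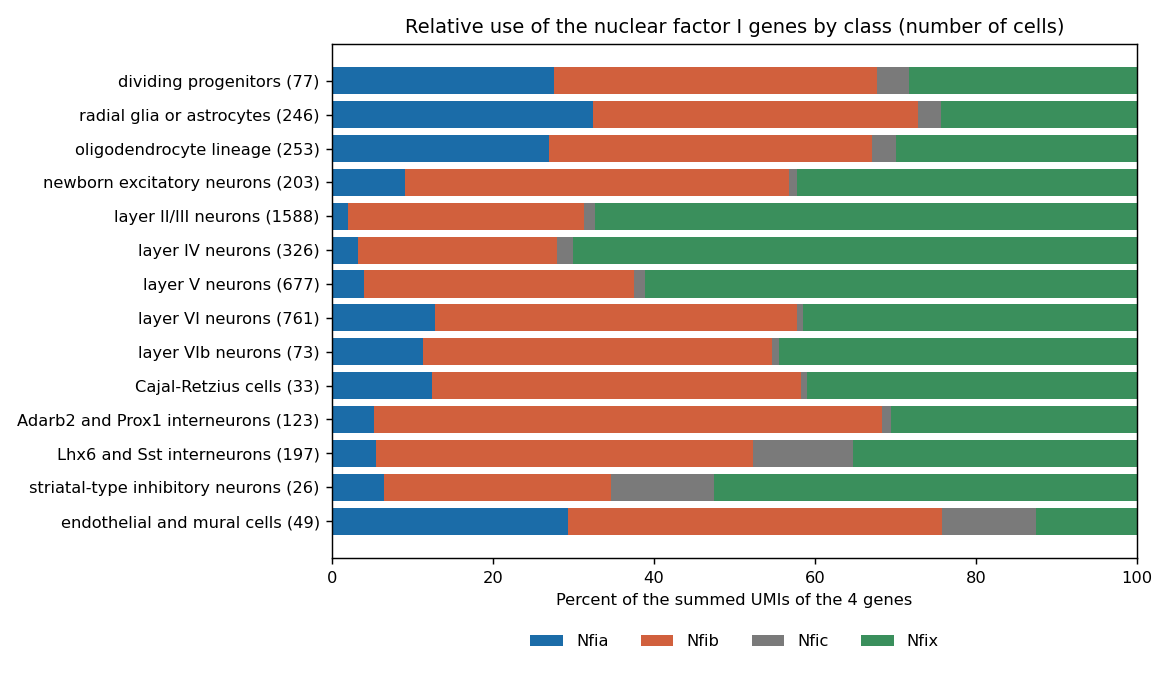
Share of each member in the summed UMIs of the 4 genes (percent) in 14 classes, with the number of cells in parentheses; each bar adds up to 100 percent. The Nfia share was 32.4% in radial glia or astrocytes and 2.01% in layer II/III neurons, and the Nfix share 24.3% and 67.3%.

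The number of members seen per thinned cell also differed. All 4 were seen in 14.3% of radial glia or astrocytes and 6.24% of layer VI neurons, and exactly 3 in 119 of 238 and in 528 of 753. Seeing all 4 needs a Nfic UMI, which 9.43% of thinned layer VI neurons and 9.78% of thinned Lhx6 and Sst interneurons had. In layer II/III neurons exactly 2 members were the rule (64.2%). No member was seen in 53.8% of Lhx6 and Sst interneurons (46.3 to 61.2), against 0 of 106 Adarb2 and Prox1 interneurons.

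Glia were then compared with neurons, the comparison for which the family is best known. Maturing excitatory neurons were the 502 layer-assigned cells with no UMI of a list of young-neuron genes (Igfbpl1, Sema3c, Nhlh1, Nhlh2, Neurod1 and Eomes). Nfia was 8.06 times higher in radial glia or astrocytes (7.42 to 8.76), Nfic 2.23 times (1.83 to 2.72) and Nfib 2.0 times (1.90 to 2.11), whereas Nfix was at 0.453 of the neuronal level (0.428 to 0.478). On the scale of CPM plus 10, Nfia and Nfic were at least 2-fold higher, as were 17.2% of the 10568 genes with at least 10 CPM in either class, and Nfix was at least 2-fold lower, as were 14.4%. Nfic, at 2.004, lay just past the threshold on that scale and Nfib, at 1.987, just short of it. The 4 genes summed were 1.26 times higher (1.23 to 1.30), but this ratio and that of Nfib turned below 1 under 3 other settings. With all cells of the layers in place of the maturing ones, the family ratio was 0.845 and the Nfib ratio 0.978. Layer by layer, the glial sum of 3419 CPM lay above maturing layers II/III (2873 CPM), V (2564 CPM) and IV (2158 CPM) and below layer VI (5582 CPM), and its interval overlapped that of the 14 cells of layer VIb (3675 CPM, 3394 to 3974). For Nfia the maturing layers II/III, IV and V had 67.5, 71.8 and 124 CPM, but layers VI and VIb had 624 and 513 CPM, closer to the glial 1109 CPM. For Nfib the maturing layer VI level, 2458 CPM, was above the glial 1381 CPM, and that of layer VIb, 1429 CPM (1256 to 1620), overlapped it. The Nfia, Nfic and Nfix ratios kept their direction under all 10 other settings, at 3.23 to 8.17, 1.99 to 2.50 and 0.346 to 0.542.

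Genes linked to the family in the developing brain were read in the same comparison. Their list came from earlier knowledge but was chosen with earlier results of these data known. The minimum of 10 CPM could be met in either class, so that a gene under it in the other class, as Sox9, Gfap, Hes1, Bbx and Cntn2 were here, could pass only through the class where it was higher, and counts over such genes are no support. Of 6 glial genes, Apcdd1 did not pass and the other 5 were at least 2-fold higher in radial glia or astrocytes. Fabp7 was at 18252 CPM against 16.1, and Slc1a3, the glutamate transporter GLAST, at 2283 against 18.8. Sox9, a transcription factor of gliogenesis, was at 715 CPM against 4.03, and Mmd2 at 389 against 29.7. Gfap, the intermediate filament of astrocytes, had 100 UMIs, or 58.4 CPM, against 0 UMIs, which at a floor of 3 UMIs, or 0.503 CPM, makes it at least 115.9-fold higher. Of 5 progenitor genes, 3 passed, and Hes1, a Notch target, and Bbx were at least 2-fold higher, at 214 against 8.39 CPM and 117 against 7.22 CPM, while Ezh2, a histone methyltransferase, was at 86.4 against 70.7 CPM. Of 3 neuronal genes, the adhesion molecule Cntn2 was lower (7.0 against 55.6 CPM), Cdh2 was higher (715 against 185 CPM) and Gabra6 had no UMI in either class.

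Dividing progenitors and the oligodendrocyte lineage were each compared with radial glia or astrocytes. The dividing progenitors also took in dividing cells that passed none of the lineage gates. In dividing progenitors 0 of 4 members were past 2-fold relative to non-dividing radial glia or astrocytes, against 5.22% of genes higher and 2.45% lower. Nfic was 1.42 times higher there (1.09 to 1.84), Nfix 1.18 times (1.08 to 1.29), Nfib 1.0 times (0.931 to 1.08), and Nfia was at 0.861 (0.787 to 0.941). In the oligodendrocyte lineage, too, 0 of 4 members were past 2-fold, against 5.44% of genes higher and 5.26% lower. Nfia was at 0.686 of the level in radial glia or astrocytes (0.641 to 0.734) and Nfix at 1.02 (0.948 to 1.09). Dividing cells stayed in the oligodendrocyte lineage but were left out of radial glia or astrocytes. Cells that passed both glial gates also counted as oligodendrocyte lineage, and the part of either in the ratios was not tested. With the higher gate of 6 UMIs from 3 markers the ratio was 0.495 for Nfia and 0.451 for Nfic, and without the most abundant markers it was 0.427 for Nfic, so that the count of 0 rests on the gates used. The class also pooled cells with and without a Pdgfra UMI, at 518 and 956 CPM of Nfia, against 1109 CPM in radial glia or astrocytes. Of the glial genes linked to the family, Fabp7 (5766 against 18252 CPM), Slc1a3 (806 against 2283 CPM) and Mmd2 (123 against 389 CPM) were at least 2-fold lower in the oligodendrocyte lineage, and Gfap (2.98 against 58.4 CPM) passed the minimum only through radial glia or astrocytes.

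The oligodendrocyte lineage was not uniform. The 129 cells with a UMI of Pdgfra, the receptor of oligodendrocyte precursors, had 518 CPM of Nfia, 787 of Nfib, 47.0 of Nfic and 598 of Nfix. The 124 cells without had 956, 1413, 117 and 1043 CPM, so that all 4 members were lower in cells with Pdgfra, at 0.401 (Nfic) to 0.573 (Nfix) of the other level. Nfic alone was at least 2-fold lower, against 5.39% of genes, and 0 of 4 members were at least 2-fold higher, against 5.63%. The cells without Pdgfra also had less Sox10 (12.5 against 319 CPM), Cspg4 (19.7 against 318 CPM) and Olig1 (625 against 1692 CPM). Genes of radial glia or astrocytes were higher in them, namely Slc1a3 (1254 against 246 CPM), Fabp7 (7728 against 3313 CPM), Aldoc (426 against 61.5 CPM) and Aqp4 (47.4 against 1.12 CPM). So was Top2a, a gene of dividing cells (627 against 230 CPM), and the part of these differences in the result was not tested. In radial glia or astrocytes, the 131 cells with an Aqp4 or Gja1 UMI, markers of astrocytes, were compared with the 115 without. The ratio was 0.929 for Nfia (0.848 to 1.02), 0.926 for Nfib (0.854 to 1.01), 0.851 for Nfic (0.621 to 1.17) and 0.887 for Nfix (0.798 to 0.986), and 0 of 4 members were past 2-fold, against 0.324% of genes higher and 0.274% lower.

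Between radial glia and newborn neurons the makeup changed. The 203 newborn excitatory neurons, gated by Eomes, Neurog2 and other genes of intermediate progenitors, had 2.23 times the Nfib of radial glia or astrocytes (2.12 to 2.34) and 3.28 times the Nfix (3.09 to 3.48), and both were at least 2-fold higher, as were 9.49% of genes. Nfia was at 0.522 (0.482 to 0.564) and Nfic at 0.645 (0.501 to 0.828), and 0 of 4 members were at least 2-fold lower, against 11.9% of genes. Of the linked glial genes, Fabp7 (151 CPM), Slc1a3 (71.8 CPM), Mmd2 (60.5 CPM) and Sox9 (30.2 CPM) were at least 2-fold lower in newborn neurons, and Gfap (5.34 CPM) passed the minimum only through radial glia or astrocytes. The sum of the family was 1.88 times that of radial glia or astrocytes (1.82 to 1.94). Over the other settings the Nfib ratio lay between 1.46 and 2.41, the Nfix ratio between 2.66 and 3.34 and the Nfia ratio between 0.502 and 0.626.

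Newborn neurons were also set against maturing upper-layer neurons, the 244 cells of layers II/III and IV without a young-neuron UMI. Nfia was 8.26 times higher in newborn neurons (7.08 to 9.67) and Nfib 6.08 times (5.73 to 6.45), both at least 2-fold higher, as were 7.06% of genes, and 0 of 4 members were at least 2-fold lower, against 6.29%. Nfix was 1.49 times higher (1.44 to 1.56), which turned to 0.886 when each gate lost its most abundant marker, and Nfic 1.39 times (1.06 to 1.81). The fold of Nfib was 2.01 under that same setting, which changes all gates and the young-neuron list.

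The levels also differed with the young-neuron genes within each layer. In layer II/III, Nfib was at 522 CPM in cells with 0 UMIs of the list, and at 681, 816, 1073 and 1785 CPM in cells with 1 to 2, 3 to 4, 5 to 9 and 10 or more. In layer V the values were 616, 956, 1120, 1284 and 1807 CPM. The intervals of neighbouring steps did not overlap in either layer. In layer IV the first 4 steps, 495, 476, 535 and 687 CPM, each overlapped the next, and the last, 1142 CPM (1045 to 1247), lay above them. In layer VI the cells with 0 UMIs had the lowest value, 2458 CPM (2293 to 2632), and the other steps lay at 3008, 2959, 2802 and 2882 CPM. In layer VIb Nfib was at 1429, 1674, 1919 and 2692 CPM with 0, 1 to 2, 5 to 9 and 10 or more UMIs. These steps held only 14, 29, 11 and 10 cells, and the 3 to 4 step, with fewer than 10 cells, was not read. Neighbouring intervals overlapped except at the last step (2491 to 2905). The list was counted without scaling for depth. From 0 to 10 or more UMIs, median depth rose from 13771 to 20491 in layer IV (23 cells in the last step) and from 14156.5 to 19206 in layer V. It rose from 4934.5 to 11965 in layer VI and from 14540 to 27156 in layer VIb. In layer II/III it fell from 10945 to 8832, and the part of depth was not tested.

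**Figure D3:**
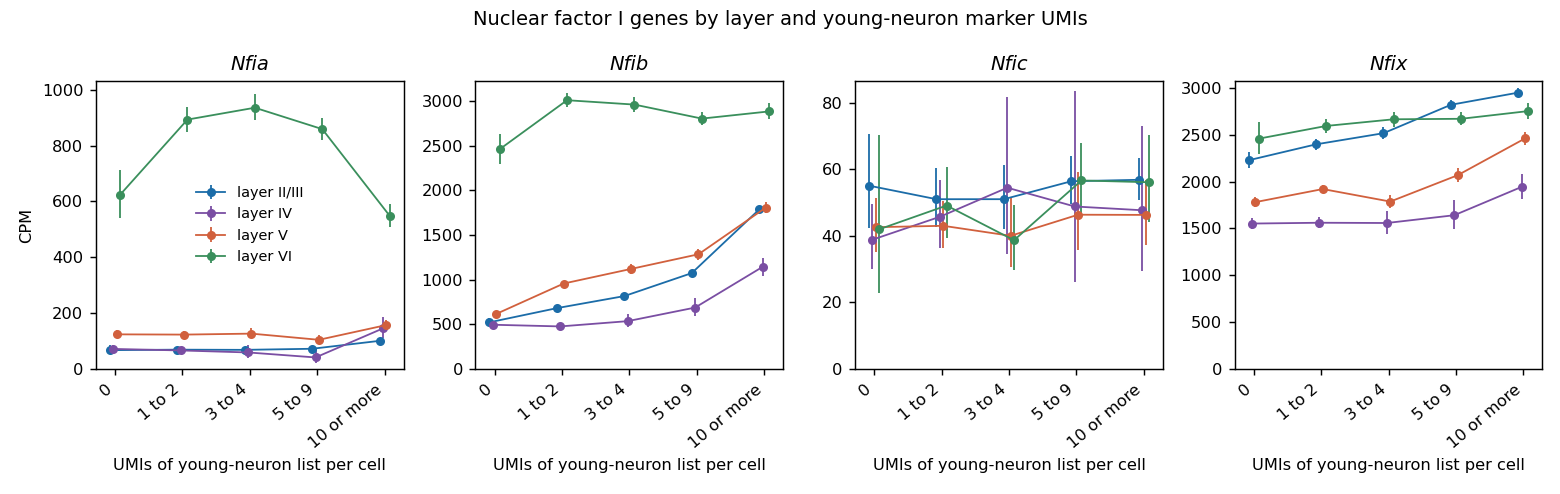
Level of each member (CPM) in layer II/III, IV, V and VI neurons by the UMIs of 6 young-neuron genes in the cell; bars are exact 95% Poisson intervals. Nfib went from 522 to 1785 CPM in layer II/III and from 616 to 1807 CPM in layer V, and layer VI stayed between 2458 and 3008 CPM.

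Young neurons, with at least 5 such UMIs, had 2.81 times the Nfib of maturing neurons in layer II/III (2.59 to 3.06), 2.59 times in layer V (2.45 to 2.74), 1.96 times in layer IV (1.77 to 2.17) and 1.15 times in layer VI (1.07 to 1.24). Nfib was at least 2-fold higher in layers II/III and V, and the other 3 members were not, against 0.725% and 0.749% of genes. In layers IV and VI, 0 of 4 members were at least 2-fold higher, against 0.538% and 1.28%. At least 2-fold lower were 0 of 4 members in each layer, against 1.45%, 0.143%, 0.651% and 0.535% of genes in layers II/III, IV, V and VI. Over the other settings the Nfib ratio stayed at 2.12 to 2.93 in layer II/III, 1.79 to 2.86 in layer IV and 1.86 to 3.12 in layer V, and it crossed 1 in layer VI (0.958 to 1.47). The young-over-maturing ratio of Nfix was 1.30, 1.29, 1.18 and 1.10 in layers II/III, V, IV and VI, and that of Nfia 1.31, 1.10 (0.949 to 1.27, which held 1), 1.48 and 1.18. For Nfic it was 1.03, 1.09, 1.24 and 1.34 in the same order, and each interval held 1. These values depended on the gates. The layer VI Nfia ratio turned below 1 under 3 other settings (lowest 0.719), with the lowest Nfia level, 548 CPM, in the cells with 10 or more young-neuron UMIs, and the layer V Nfix ratio turned to 0.877 without the most abundant markers. In layer II/III the Nfia ratio was 2.58 with gates on thinned cells and 3.27 without the most abundant markers, and in layer IV, without those markers, the ratio was 5.14 for Nfia, 5.99 for Nfic and 2.86 for Nfib. In layer V the Nfib ratio was below 2 under 3 other settings. In maturing layer II/III neurons Nfix thus made up 77.6% of the family and Nfib 18.2%, against 64.2% and 32.6% in young ones. Cntn2 was also higher in young cells, 3.96 times in layer II/III and 6.82 times in layer V. On the scale of CPM plus 10 it was the only linked gene past 2-fold there. Without the 10 added, Fabp7 was at 2.15 (1.46 to 3.225) and Bbx at 2.16 (1.22 to 4.01) in layer V. Maturing layer VI cells were shallower than young ones, with a median of 4934.5 against 10175 UMIs, and the part of depth in the layer VI values was not tested.

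The deepest layers differed from the layers above them. Nfia was 6.39 times higher in layer VI than in layer V neurons (6.03 to 6.78) and Nfib 2.64 times (2.58 to 2.70), both at least 2-fold higher, as were 1.72% of 9321 genes, and 0 of 4 members were at least 2-fold lower, against 1.6%. Nfix was 1.34 times higher (1.31 to 1.36), and Nfic was at 1.14 (0.995 to 1.31). The Nfia ratio lay between 3.57 and 6.66 and the Nfib ratio between 1.86 and 2.95 over the other settings, both lowest with gates on thinned cells. Excitatory neurons with at least 2 UMIs of a single marker were also read. Those with any of the 6 layer VI markers, such as Foxp2, Tle4 and Syt6, had 488 to 698 CPM of Nfia, against 103 to 128 CPM with Cux2, Mdga1 or Nectin3, the layer II/III markers. Markers of layers V and IV ranged more widely. Nfia was at 185 to 489 CPM with the 5 layer V markers, highest with Bcl11b, and at 106 and 161 CPM with Inhba and Rorb but at 660 CPM in the 49 cells with Whrn. Of the layer VIb markers, Cplx3, Ctgf and Nxph4 gave 473 to 667 CPM, while the 355 cells with Nr4a2 had 176 CPM (165 to 188). Of the linked neuronal genes, Cntn2 was 3.43 times higher in layer VI than in layer V (3.13 to 3.76). When layers V, VI and VIb were pooled, maturing deep-layer neurons had 2.83 times the Nfia (2.41 to 3.34) and 1.69 times the Nfib (1.59 to 1.81) of upper-layer neurons. Over the other settings the Nfia ratio lay between 2.73 and 6.50 and the Nfib ratio between 1.66 and 3.03, both highest with gates on thinned cells. Nfia alone was at least 2-fold higher, against 1.19% of genes, and 0 of 4 members were at least 2-fold lower, against 0.873%. Cntn2 went the other way in this pooled comparison, at 0.561 of the upper-layer level (0.446 to 0.704).

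Layer IV had less of the family than layer II/III. Nfib was at 0.478 of the layer II/III level (0.459 to 0.498) and Nfix at 0.590 (0.575 to 0.605), and Nfib was at least 2-fold lower, against 0.642% of genes, and 0 of 4 members at least 2-fold higher, against 1.48%. The interval of the Nfia ratio, 0.913 (0.808 to 1.03), held 1. With the higher gate of 6 UMIs from 3 markers the Nfib ratio was 0.763 and the Nfia ratio 1.59, and without the most abundant markers they were 0.819 and 1.27. Fewer layer IV than layer II/III cells were young, 39 of 326 against 999 of 1588. Among cells with no young-neuron UMI, Nfib was at 495 CPM in layer IV and 522 CPM in layer II/III, with overlapping intervals, while Nfix was at 1552 and 2228 CPM. The part of young cells in the ratios between these layers was not tested.

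Interneurons of the Lhx6 and Sst type and of the Adarb2 and Prox1 type lay far apart. Lhx6 and Sst interneurons, which come from the medial ganglionic eminence, had 206 CPM of Nfib (182 to 233), 155 CPM of Nfix (134 to 178) and 23.6 CPM of Nfia. Adarb2 and Prox1 interneurons, most of which come from the caudal ganglionic eminence, had 3417, 1657 and 282 CPM. The ratios were 0.0604 for Nfib (0.0528 to 0.0688), 0.0936 for Nfix (0.0797 to 0.110) and 0.0836 for Nfia (0.0544 to 0.125), and these 3 members were at least 2-fold lower in Lhx6 and Sst interneurons, as were 4.51% of 10025 genes, and 0 of 4 were at least 2-fold higher, against 6.26%. Nfic was at 54.3 and 61.8 CPM, with a ratio of 0.879 (0.565 to 1.40). Over the other settings the ratio of the family sum, 0.0811, lay between 0.0724 and 0.113. After thinning, Nfib was seen in 24.5% of Lhx6 and Sst and in 98.1% of Adarb2 and Prox1 interneurons, with median depths of 6034 and 4241 UMIs before thinning.

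Single markers gave the same order. Inhibitory neurons with at least 2 UMIs of Sst had 53.9 CPM of Nfib (37.3 to 75.3), those with Lhx6 186 CPM, and those with Maf, the highest of the 6 markers of this list, 517 CPM (479 to 558). Those with Sp8, Htr3a, Adarb2 or Prox1 had 3603, 3271, 2502 and 2483 CPM, and those with Nr2f2, the lowest of that list, 1561 CPM (1445 to 1684). These sets share cells, since a cell can carry several markers. In the 39 dividing inhibitory cells, Nfib was at 2417 CPM and Nfix at 1666 CPM.

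**Figure D4:**
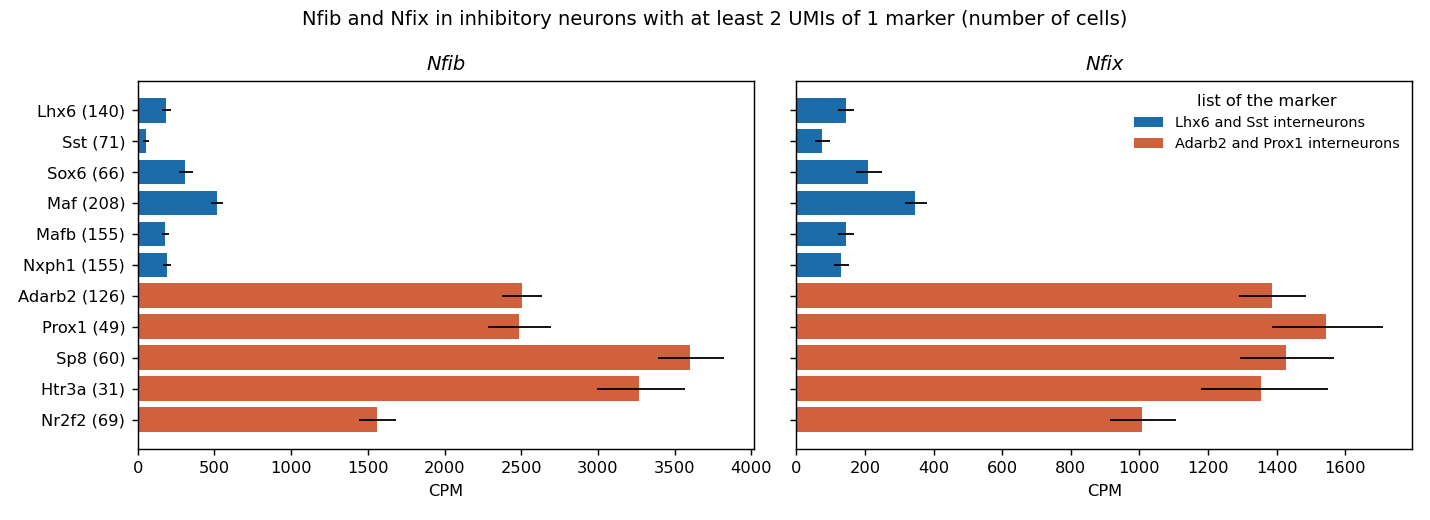
Level of Nfib and Nfix (CPM, axes from 0) in inhibitory neurons with at least 2 UMIs of the marker named at the left, with the number of cells in parentheses; colours give the marker's list and bars exact 95% Poisson intervals. All 6 markers of the Lhx6 and Sst list lay at 517 CPM of Nfib or less, and all 5 of the Adarb2 and Prox1 list at 1561 CPM or more.

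A pooled value for the 320 interneurons mixes both types. Against maturing excitatory neurons, pooled Nfix was at 0.311 (0.291 to 0.331) and was the only member at least 2-fold lower, against 4.61% of genes, while 0 of 4 members were at least 2-fold higher, against 4.56%. Pooled Nfib was 1.58 times higher (1.5 to 1.67), which turned to 0.611 to 0.774 under 4 other settings. Pooled Nfia was at 0.691 (0.582 to 0.817), and at 0.278 to 0.783 over the other settings. Linked genes were also read between Lhx6 and Sst and Adarb2 and Prox1 interneurons, where 4.51% of all genes were at least 2-fold lower in the former. So were 2 of 3 measured glial genes (Sox9 and Fabp7), 3 of 3 progenitor genes (Ezh2, Uhrf1 and Bbx) and 0 of 2 neuronal genes. Slc1a3, Cntn2 and Cdh2 were within 2-fold, at 0.709, 0.716 and 0.749 on the scale of CPM plus 10. The levels of the lower genes were low, and these counts are no support. Uhrf1, at 1 against 6 UMIs, and Bbx, at 8.66 against 30.9 CPM, passed the minimum of 10 CPM only through the class where they were higher. Sox9 was at 11.8 against 68.0 CPM and Ezh2 at 71.6 against 155 CPM.

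**Figure D5:**
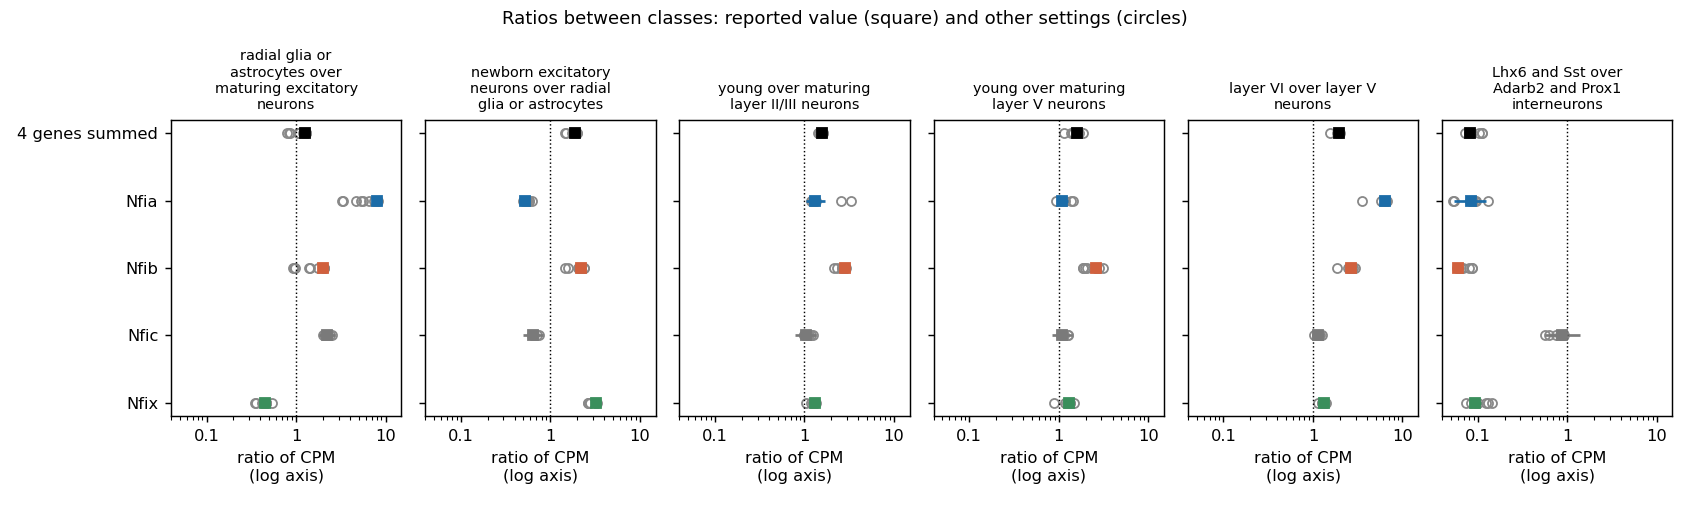
Ratio of CPM between classes (log axis) for the 4 genes summed and for each member in 6 comparisons; squares with bars are the reported values with exact 95% intervals, circles the values under other settings, and the dotted line is 1. The family ratio of glia over maturing neurons had circles on both sides of 1 (0.797 to 1.30), while those of layer VI over layer V (1.54 to 2.0) and of Lhx6 and Sst over Adarb2 and Prox1 interneurons (0.0724 to 0.113) had theirs on 1 side.

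Across the 16 classes, which all come from 1 library, the levels of Nfib and Nfix ran together most (Pearson r of log2(CPM + 10) 0.830), followed by Nfia and Nfib (0.784). The value was 0.463 for Nfia and Nfix, 0.455 for Nfia and Nfic, 0.188 for Nfib and Nfic and -0.161 for Nfic and Nfix. Among 13628 other genes, those most like Nfia were Cxxc5 (0.895), 2310009A05Rik (0.842), Hdac8 (0.824), Ppp1r15b (0.817) and Zc3h14 (0.810). Those most like Nfib were Mapk7 (0.889), 2900076A07Rik (0.834), Rsrc2 (0.804), Pop4 (0.800) and Gse1 (0.796). Nfix was most like Kctd15 (0.854), Clip3 (0.852), Tango2 (0.833), Nsfl1c (0.819) and Ywhaq (0.817). Nfic, with its few UMIs, was most like Ptbp1 (0.965), a splicing factor of dividing cells, Sept10 (0.962), Ddx41 (0.953), Nsmce4a (0.952) and Apool (0.951).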

How the data were processed

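The UMI count table that the authors deposited holds raw counts per gene and cell barcode, without normalization, and its sums equalled the deposited cell table in all 11062 cells. Per the submitters' processing notes, STAR, Cell Ranger 2 and Seurat were used with mm9. The rule for calling cells is not given in the sources used here. The 4 members and all marker and linked lists were chosen with earlier results of these data known. The cut-offs of the gates, the loss of 4 layer markers seen in over 50% of cells, and the comparisons within layers and between interneuron types were set after marker UMIs and class sizes were seen. The sets by steps of young-neuron UMIs, by single markers and by Pdgfra or Aqp4 and Gja1 were added later.

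A layer was given where its list had at least 3 UMIs from at least 2 markers and at least 2 times those of every other layer list, and the layer VIb list took precedence. UMIs of a class were summed, mitochondrial genes (3.90% of UMIs) were left out, and CPM was given with exact Poisson intervals, shares with exact binomial intervals and ratios with exact conditional binomial intervals. Named were all members, the linked lists and, for each member, the 5 genes of highest r among genes with at least 10 CPM in a class. Python 3.11.15, numpy 2.4.6 and scipy 1.17.1 were used, and the code was tested on simulated data. The 10 other settings are given at the end. The promoter windows are of GRCm38.p6, and no coordinates were taken from the files. One marker of the striatal-type gate is not reported here.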

Additional observations from a re-analysis of the deposited data

How the results depend on the processing

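No paired analysis was possible because the data held 1 library only. The settings tried were no minimum of detected genes, a higher gate (6 UMIs from 3 markers), gates on cells thinned to 2000 UMIs (2 UMIs from 2 markers), the mean CPM over cells, mitochondrial genes kept in the total, the deepest 5% of each class left out, cells of several gates kept, and gates without their most abundant marker. Counting neurons with up to 2 young-neuron UMIs, or all cells of a layer, as maturing was chosen after seeing the data. Without the most abundant marker of every list, that of the young-neuron list included, the maturing neurons came to 2034 cells in place of 502, and all cells of a layer came to 3425. Of the ratios under other settings, 384 lay within the counting interval of the reported value, 208 moved outside it, and 18, whose reported interval did not hold 1, crossed 1. The most used member of a class was kept in 68 cases and changed in 2.

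For the family sum, radial glia or astrocytes over maturing neurons (1.26) became 1.08 with the higher gate, 0.865 on thinned cells, 1.21 as a mean over cells, 0.797 without the top marker, 1.05 with up to 2 young UMIs and 0.845 with all cells of a layer. Its Nfib ratio (2.0) became 0.952 on thinned cells, 0.935 without the top marker and 0.978 with all cells of a layer. Deep over upper layers (1.21) became 1.71 on thinned cells, 1.31 as a mean over cells and 1.41 with up to 2 young UMIs. Newborn over maturing upper-layer neurons (2.64) became 1.82 with the higher gate, 2.14 on thinned cells, 2.76 as a mean over cells and also without the deepest cells, 2.54 with cells of several gates, 1.32 without the top marker, 2.43 with up to 2 young UMIs and 1.77 with all cells of a layer. Its Nfix ratio became 0.886 without the top marker. Interneurons over maturing neurons (0.671) became 0.427 with the higher gate, 0.478 on thinned cells, 0.818 as a mean over cells, 0.775 without the deepest cells, 0.749 with cells of several gates, 0.368 without the top marker, 0.559 with up to 2 young UMIs and 0.449 with all cells of a layer. Its Nfib ratio became 0.754 with the higher gate, 0.745 on thinned cells, 0.611 without the top marker and 0.774 with all cells of a layer. The oligodendrocyte lineage over radial glia or astrocytes (0.827) became 0.613 with the higher gate, 0.697 on thinned cells, 0.760 as a mean over cells and 0.614 without the top marker. Dividing progenitors over radial glia or astrocytes (1.01) became 1.11 on thinned cells. Layer VI over layer V (1.97) became 1.54 on thinned cells, 1.88 as a mean over cells and 2.003 without the deepest cells. Lhx6 and Sst over Adarb2 and Prox1 interneurons (0.0811) became 0.0724 with the higher gate, 0.113 on thinned cells and also as a mean over cells, and 0.103 with cells of several gates. For young over maturing neurons, the layer V Nfix ratio became 0.877 without the top marker. In layer VI the family ratio became 0.990 with up to 2 young UMIs, the Nfia ratio 0.919 on thinned cells, 0.719 without the top marker and 0.865 with up to 2 young UMIs, and the Nfib ratio 0.958 with the higher gate and 0.971 with up to 2 young UMIs. The cause of these shifts was not tested.

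With 1 library, no spread between animals was measured. The classes of 26 to 39 cells are limited by the number of cells, and Nfic, at a median of 0 UMIs per cell in most classes, by depth.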
